A study of Mus musculus with 18 samples.

Results

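The mouse genes whose symbol is Gpr followed by a number were followed across 3 fat depots: inguinal (iWAT) and epididymal (eWAT) white fat, both as isolated adipocytes, and brown fat (BAT). They were taken by symbol, with Gpr81, Gpr109a and Gpr44 left out. This gave 93 genes of the 45151 symbols that had a row in the files of all 3 depots. The rule itself uses no measured value.

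G protein-coupled receptors span the membrane and pass a signal from outside the cell to G proteins inside it. In fat cells, receptors that raise cAMP through Gs start lipolysis, and receptors that act through Gi restrain it. A Gpr number was given to receptor-like genes found by sequence, many of which have since been matched to a ligand or renamed. The set therefore holds receptors for fatty acids and other lipids, for protons, for peptides and for zinc, as well as adhesion receptors, which carry long extracellular domains that bind matrix or neighbouring cells. Other members still lack an agreed ligand and are called orphans. A few are not plasma membrane receptors at all but reside in the Golgi, in lysosomes or act as transporters.

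RNA had been sequenced from male wild type C57BL/6J mice aged 16 weeks on regular chow, with 6 samples of each depot and no treatment. The iWAT and eWAT samples were mature adipocytes, which float after collagenase digestion of the fat pad and were taken off the top, and BAT was whole frozen tissue. The labels call the BAT cell type adipocytes, but all cells of the tissue contributed RNA, so depot and preparation cannot be told apart in comparisons with BAT. Samples are named here by the number in their title, and since no label says that each came from a separate mouse, p-values measure the spread between these samples.

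The totals of reads were 22929576 to 32141048 in iWAT, 26607733 to 34048018 in eWAT and 26706786 to 34512470 in BAT. At these depths 3 reads on a row of 2000 bp equal an RPKM of 0.0435 to 0.0654, which covers counting error only. RPKM is the number of reads per kilobase of a row, scaled to the sequencing depth. The iWAT and BAT files hold 1 row per gene with its exons merged, whereas the eWAT files hold 1 row per transcript, of which the one with the most reads was used. Since only eWAT has the second kind of file, effects of counting and of depot cannot be told apart where eWAT is compared.

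Sets of 5 marker genes were summed in every library. The brown adipocyte markers summed to an RPKM of 1750 to 2327 in BAT, against 19.7 to 30.4 in iWAT and 1.75 to 4.70 in eWAT. The adipocyte markers summed to at least 9091 in every white library and to 5655 to 7026 in BAT. Macrophage markers reached 1981 in eWAT sample 15, compared with 137 to 477 in the other eWAT libraries, 26.7 to 132 in iWAT and 20.0 to 47.4 in BAT. Endothelial markers were highest in eWAT sample 8 (246), iWAT sample 14 (171) and BAT sample 11 (103). Epididymis markers reached 66.4 in eWAT sample 14 and 60.6 in sample 15, and skeletal muscle markers 1340 in BAT sample 12. In bulk RNA, fewer cells of a type and less RNA per cell cannot be told apart.

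A mean RPKM of at least 1 over the 6 samples was taken as expressed. By this measure iWAT expressed 21 of the 93 genes, eWAT 25 and BAT 18. These are 22.6%, 26.9% and 19.4% of the members, beside 26.4%, 29.0% and 24.9% of all symbols. In all, 27 genes reached the minimum in some depot and 66 did not. The median RPKM over the 93 genes was 0.0379 for iWAT, 0.097 for eWAT and 0.0464 for BAT, so most members were at or near the level of a few reads. There were 47 genes with reads in all 18 libraries, and 8 genes (Gpr6, Gpr26, Gpr101, Gpr112, Gpr139, Gpr142, Gpr144 and Gpr149) had no read in any of them.

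The 16 genes expressed in all 3 depots were Gpr4, Gpr17, Gpr56, Gpr89, Gpr107, Gpr108, Gpr116, Gpr120, Gpr125, Gpr137, Gpr146, Gpr155, Gpr157, Gpr160, Gpr172b and Gpr180. Gpr19, Gpr64, Gpr137b and Gpr182 reached the minimum in both white depots but not in BAT. Gpr27, Gpr34, Gpr65, Gpr132 and Gpr183 reached it in eWAT alone, Gpr153 in BAT alone, and Gpr135 in iWAT and BAT. Single libraries decided some of these entries. Without eWAT sample 15 the mean RPKM was 0.754 for Gpr34 and 0.365 for Gpr183, and eWAT had 23 expressed genes. Without iWAT sample 14 the mean was 0.741 for Gpr182 and 0.92 for Gpr160, and iWAT had 19. Gpr182 also fell to 0.971 without iWAT sample 12, and Gpr157 to 0.977 in BAT without sample 12.

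**Figure D1:**
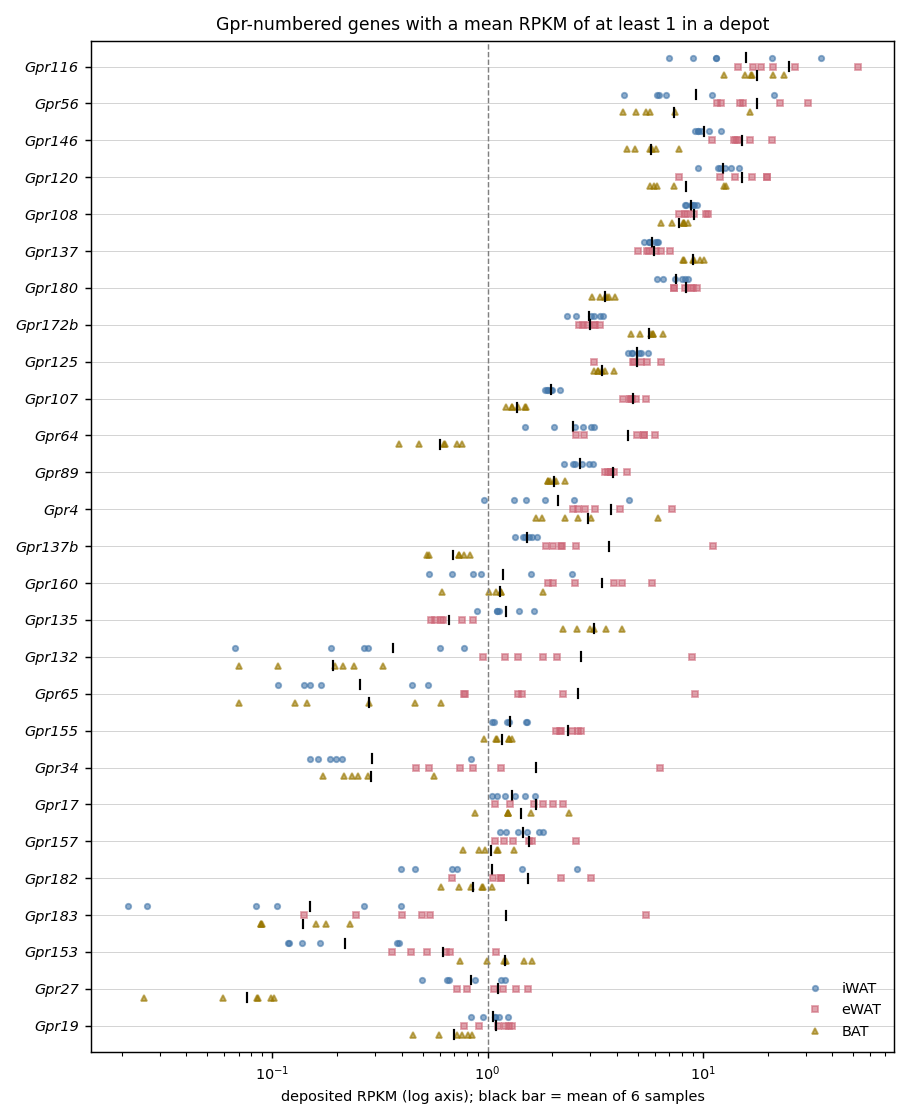
Deposited RPKM (log axis) of the 27 genes expressed in a depot, with 1 point per sample and a black bar at the mean of 6. Blue circles are iWAT, red squares eWAT and brown triangles BAT, and the dashed line marks 1. Gpr27 lies far lower in BAT than in the white depots, Gpr135 and Gpr153 are highest in BAT, and 1 eWAT library stands far to the right for Gpr65, Gpr132, Gpr34, Gpr183 and Gpr137b.

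Members next to the minimum were set beside their spread between samples. In iWAT, Gpr160 (1.18 ± 0.733), Gpr19 (1.06 ± 0.143) and Gpr182 (1.05 ± 0.842) were just above it, and Gpr27 (0.839 ± 0.288), Gpr124 (0.389 ± 0.147) and Gpr132 (0.363 ± 0.269) just below (mean RPKM ± SD, n = 6). In eWAT, Gpr183 (1.22 ± 2.09), Gpr27 (1.11 ± 0.315) and Gpr19 (1.10 ± 0.208) were above, and Gpr124 (0.706 ± 0.267), Gpr35 (0.667 ± 0.538) and Gpr135 (0.661 ± 0.121) below. In BAT, Gpr155 (1.16 ± 0.129), Gpr160 (1.14 ± 0.386) and Gpr157 (1.04 ± 0.193) were above, and Gpr182 (0.855 ± 0.162), Gpr19 (0.698 ± 0.15) and Gpr137b (0.69 ± 0.129) below. For most of the genes just above the minimum, the distance to it was smaller than the SD. For most of those just below, it was larger.

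The expressed genes were spread unevenly over the roles. Of the 10 intracellular or non-receptor proteins that carry a Gpr number, 8 were expressed in iWAT, 8 in eWAT and 7 in BAT. Of 18 adhesion receptors, 4, 4 and 3 were, and of 30 class A orphans with no other role, 5, 4 and 5. Of 11 receptors that signal through Gs without a ligand or belong to the SREB family, Gpr27 in eWAT was the only one at the minimum. Of 9 lipid and metabolite receptors 1, 3 and 1 were expressed, of 10 other ligand-assigned receptors 2, 2 and 1, and of 3 proton-sensing receptors 1, 3 and 1.

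**Figure D2:**
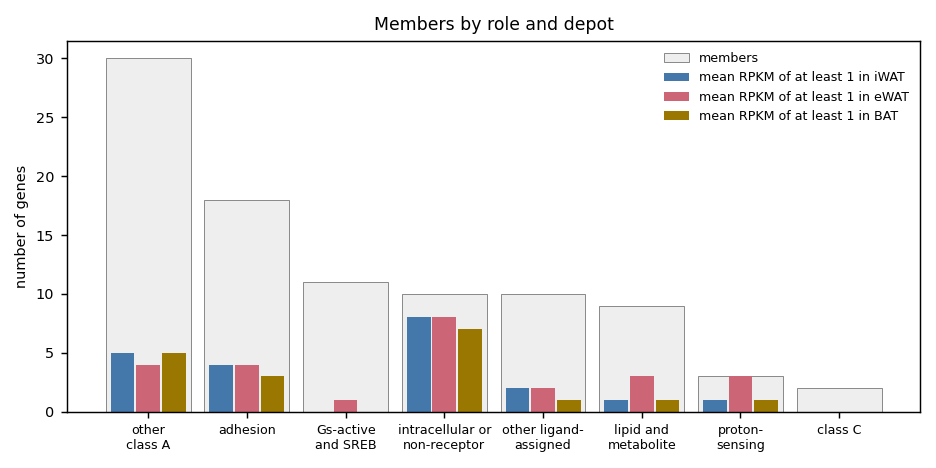
Number of genes by role. The grey bar is the number of members, and the coloured bars are those expressed in each of iWAT, eWAT and BAT. The intracellular or non-receptor proteins are expressed for 8, 8 and 7 of 10 genes, while most class A orphans and adhesion receptors lie below the minimum.

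Among the adhesion receptors, Gpr116 (now Adgrf5), which takes part in lung surfactant balance, had the highest mean level of all members in each depot. Its RPKM ran from 7.0 to 35.3 (median 11.5) in iWAT, from 14.5 to 52.5 (median 19.9) in eWAT and from 12.5 to 23.9 (median 16.8) in BAT. The depots overlapped, and the highest sample was 8 in eWAT, 14 in iWAT and 11 in BAT. Gpr56 (Adgrg1), a receptor for collagen III and transglutaminase 2, ran from 4.32 to 21.4 (median 6.5) in iWAT, from 11.6 to 30.9 (median 15.1) in eWAT and from 4.24 to 16.6 (median 5.57) in BAT. Again the samples 14, 8 and 11 were the highest of their depots. These are the libraries with the highest sum of endothelial markers. Sample 14 of iWAT and sample 8 of eWAT also had the highest sum of smooth muscle and pericyte markers (108 and 186), while BAT sample 11 did not.

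Gpr125 (Adgra3) was tighter, with a mean RPKM of 4.94 ± 0.39 for iWAT, 4.95 ± 1.07 for eWAT and 3.41 ± 0.259 for BAT. Gpr64 (Adgrg2), known for fluid transport in the male reproductive ducts, ran from 1.49 to 3.11 (median 2.66) in iWAT, from 2.59 to 5.98 (median 5.13) in eWAT and from 0.388 to 0.764 (median 0.632) in BAT. Every white sample was above every BAT sample. In the eWAT samples 7, 8, 11, 13, 14 and 15 its RPKM was 5.98, 4.95, 5.31, 2.79, 5.36 and 2.59, and the epididymis markers summed to 0, 0, 0.0114, 3.54, 66.4 and 60.6. The part of these markers in the level of Gpr64 was not tested.

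Gpr120 (Ffar4), a receptor for long-chain fatty acids in adipocytes and gut cells, was the highest of the lipid receptors. Its RPKM ran from 9.45 to 14.7 (median 12.4) in iWAT, from 7.75 to 20.0 (median 15.6) in eWAT and from 5.66 to 12.8 (median 6.72) in BAT. Samples 7 and 11 of BAT, at 12.5 and 12.8, lay within the range of iWAT, and the other 4 BAT samples lay below it. Gpr146, an orphan known for its part in cholesterol metabolism in the liver, ran from 9.19 to 12.2 (median 9.66) in iWAT, from 11 to 21.0 (median 14.4) in eWAT and from 4.45 to 7.74 (median 5.75) in BAT, so that BAT lay below both white depots on the deposited RPKM.

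Most of the intracellular or non-receptor group varied little between samples. Gpr108, a Golgi protein, had a mean RPKM of 8.81 ± 0.456, 9.07 ± 1.14 and 7.75 ± 0.783 in iWAT, eWAT and BAT. Gpr180, which is not a canonical receptor, was at 7.48 ± 0.995, 8.37 ± 0.877 and 3.50 ± 0.291. Gpr137, a lysosomal membrane protein, was at 5.82 ± 0.338, 5.92 ± 0.733 and 9.04 ± 0.809, and Gpr172b, a riboflavin transporter, at 2.97 ± 0.438, 2.99 ± 0.255 and 5.63 ± 0.661. Both were thus higher in every BAT sample than in any white sample. Gpr89 (2.68, 3.83 and 2.03) and the lysosomal cholesterol sensor Gpr155 (1.27, 2.37 and 1.16) had their highest mean in eWAT. The exons of Gpr89 share 24.9% of their bases with Pdzk1 on the opposite strand. Gpr137b was the exception to the narrow ranges. It ran from 1.34 to 1.71 (median 1.52) in iWAT, from 1.88 to 11.1 (median 2.21) in eWAT and from 0.522 to 0.828 (median 0.739) in BAT, and its highest value was in eWAT sample 15.

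Row length bears on Gpr107, a protein of the secretory pathway. Its mean RPKM was 1.96 ± 0.117 for iWAT, 4.75 ± 0.407 for eWAT and 1.37 ± 0.113 for BAT. The merged row is 16135 bp long, whereas the eWAT transcript row is 6135 bp. Over the merged length the eWAT reads gave 1.81 ± 0.155. Reads of the gene outside that transcript are left out, so this eWAT value is a lower limit. It stayed above the 1.37 of BAT but does not settle the order of eWAT and iWAT. Other expressed genes moved as well. Over the merged length the mean in eWAT was 1.74 ± 0.778 for Gpr160 in place of 3.40 and 3.95 ± 0.488 for Gpr137 in place of 5.92. For Gpr146 it was 9.38 ± 2.06 in place of 15.2, which does not settle its order against the 10.1 of iWAT. On this lower limit Gpr108 was at 6.90 and Gpr19 at 0.854, under the minimum, leaving 24 expressed genes. Over all members the merged row was 1.12 times as long as the eWAT row at the median.

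Promoter windows are printed for 5 members whose levels differed between the depots or that led their group. The windows are from RefSeq (build GRCm38.p6), 250 bases before to 50 after the annotated start. Such a window was found for 67 of the 93 genes. Capitals mark matches on either strand to a GC box (GGGCGG), to a CCAAT box, whose letters are its name, or to a TATA box (searched as TATAAA).

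Gpr64, chrX:160390440-160390739, plus strand: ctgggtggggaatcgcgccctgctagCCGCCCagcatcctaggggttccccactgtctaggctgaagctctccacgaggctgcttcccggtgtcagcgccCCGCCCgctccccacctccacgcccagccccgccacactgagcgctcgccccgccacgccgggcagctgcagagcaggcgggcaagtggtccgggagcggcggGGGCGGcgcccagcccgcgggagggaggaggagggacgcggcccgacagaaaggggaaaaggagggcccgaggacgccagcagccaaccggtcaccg
Gpr120, chr19:38096829-38097128, plus strand: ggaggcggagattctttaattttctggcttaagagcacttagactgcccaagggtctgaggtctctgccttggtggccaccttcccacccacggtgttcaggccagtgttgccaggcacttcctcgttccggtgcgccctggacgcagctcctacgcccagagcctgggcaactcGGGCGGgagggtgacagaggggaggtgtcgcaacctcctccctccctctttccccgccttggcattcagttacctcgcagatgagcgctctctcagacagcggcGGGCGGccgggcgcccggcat
Gpr135, chr12:72071052-72071351, minus strand: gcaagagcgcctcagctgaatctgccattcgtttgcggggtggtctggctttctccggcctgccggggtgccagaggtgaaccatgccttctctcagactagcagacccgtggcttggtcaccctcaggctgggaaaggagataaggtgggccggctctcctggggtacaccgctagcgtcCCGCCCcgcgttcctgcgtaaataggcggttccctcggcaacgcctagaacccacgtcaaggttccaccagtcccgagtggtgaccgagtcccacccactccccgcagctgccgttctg
Gpr153, chr4:152273862-152274161, plus strand: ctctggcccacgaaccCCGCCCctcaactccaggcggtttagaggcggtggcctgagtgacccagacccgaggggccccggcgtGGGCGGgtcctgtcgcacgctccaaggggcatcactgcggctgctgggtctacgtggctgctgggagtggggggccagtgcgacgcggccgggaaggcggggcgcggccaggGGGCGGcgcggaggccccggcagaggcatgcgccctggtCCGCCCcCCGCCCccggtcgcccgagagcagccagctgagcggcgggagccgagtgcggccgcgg
Gpr65, chr12:98268385-98268684, plus strand: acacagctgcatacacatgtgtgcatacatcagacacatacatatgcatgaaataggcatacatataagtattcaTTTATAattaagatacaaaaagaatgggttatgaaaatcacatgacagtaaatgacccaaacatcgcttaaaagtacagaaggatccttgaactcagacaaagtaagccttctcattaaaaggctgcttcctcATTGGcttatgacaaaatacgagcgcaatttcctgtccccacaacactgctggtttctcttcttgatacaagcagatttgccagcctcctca

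The GC box letters occurred 3 times in the window of Gpr64, 2 times in that of Gpr120, once in that of Gpr135 and 5 times in that of Gpr153. These windows had a GC content of 74.0%, 63.7%, 63.7% and 77.3%, with 30, 19, 21 and 35 CpG dinucleotides. That of Gpr65, a receptor that was higher in eWAT, had a GC content of 38.3%, 3 CpG dinucleotides, no GC box letters and 1 match each to the CCAAT box and the TATA box. Over all 32851 RefSeq windows the median was 52.7% GC and 7 CpG dinucleotides, 35.7% held the GC box letters, 37.4% those of the CCAAT box and 13.6% those of the TATA box. The letters TGACGTCA (cAMP response element) occurred in 1.79% of all windows and in none of these 5, and GAGGAAGT (PU.1 site) occurred in 3.2% of all windows and once in that of Gpr120, where it is left in lower case. The palindromic EBF motif occurred in 0.904% of all windows and in none of the 5. The PPAR direct repeat occurred in 0.0396% and in none of the 5. A match describes the letters and is not a binding site.

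The first comparison asked which of these genes differed between iWAT adipocytes and BAT. Counting fits were made with edgeR, and a gene was tested when at least 6 samples of the fit had 10 or more reads. Of the 93 genes 37 were tested and 17 passed an adjusted p of 0.05, with 10 higher in iWAT and 7 higher in BAT. That is 45.9% of those tested, against 68.6% of the 17422 symbols tested (34.6% higher in iWAT and 34.0% higher in BAT). The median log2 fold change of iWAT over BAT was -0.08 for the members and 0.01 for all symbols. By role, 6 of 9 tested intracellular or non-receptor proteins passed, 4 of them higher in iWAT. So did 6 of 9 class A orphans, 3 in each direction, and 3 of 8 adhesion receptors, 2 of them higher in iWAT.

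Gpr27 (chr6:99642673-99643812 in mm9, a single exon), an orphan of the SREB family, differed most towards iWAT. Its RPKM ran from 0.497 to 1.2 (median 0.767) in iWAT and from 0.0254 to 0.102 (median 0.0855) in BAT, where it had only 1 to 4 reads a library. It met the read minimum only through the iWAT samples (13 to 44 reads), so it could be tested only because it was higher there. In the fit it was 8.90-fold higher in iWAT (log2 3.15 ± 0.32 (SE), adjusted p = 9.26e-07). Without iWAT sample 14, Gpr27 fell under the read minimum and was not tested.

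Gpr64 (chrX:156828622-156936002, 31 exons) followed at 3.41-fold (log2 1.77 ± 0.21, adjusted p = 5.30e-06). The orphans Gpr63 (2.36-fold, adjusted p = 9.10e-04) and Gpr152 (2.04-fold, adjusted p = 0.0105) were higher in iWAT at a mean RPKM below 0.3. Of the expressed genes, Gpr137b, a lysosomal protein tied to mTORC1, was 1.84-fold higher (log2 0.88 ± 0.11), Gpr180 1.78-fold (0.83 ± 0.09) and Gpr146 1.47-fold (0.56 ± 0.09). Gpr125 and Gpr107 passed the test at a log2 fold change of 0.27 and 0.26, and Gpr137c was at 0.84. The exons of Gpr146 share 10.6% of their bases with D830046C22Rik on the same strand.

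In the other direction, Gpr162 (chr6:124808201-124814001), an orphan, was 9.99-fold higher in BAT (log2 -3.32 ± 0.31, adjusted p = 3.88e-07). It was low in both, with 17 to 35 reads a library in BAT and 1 to 4 in iWAT, so it met the read minimum only through BAT, in the eWAT fits as well. The orphan Gpr153 (chr4:151648341-151659446) ran from 0.749 to 1.60 (median 1.2) in BAT and from 0.119 to 0.39 (median 0.152) in iWAT, a 6.45-fold difference with no overlap (log2 -2.69 ± 0.31, adjusted p = 3.32e-06). Gpr135 (chr12:73168963-73172112), another orphan, ran from 2.25 to 4.21 (median 3.05) in BAT and from 0.896 to 1.65 (median 1.12) in iWAT, or 3.09-fold (log2 -1.63 ± 0.18, adjusted p = 1.70e-06). Both lay wholly above iWAT in BAT.

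Gpr172b was 2.28-fold higher in BAT (log2 -1.19 ± 0.10) and Gpr137 1.87-fold (log2 -0.90 ± 0.08). The exons of Gpr137 share 18.7% of their bases with Bad on the opposite strand, and whether counting used the strand is not given in the sources used here. Gpr30 (GPER1), a receptor reported to bind oestrogen, passed at 2.02-fold, and Gpr124 (Adgra2), a co-receptor for Wnt7 signals in vessels, at 1.86-fold. The ranges of both overlapped between the depots.

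**Figure D3:**
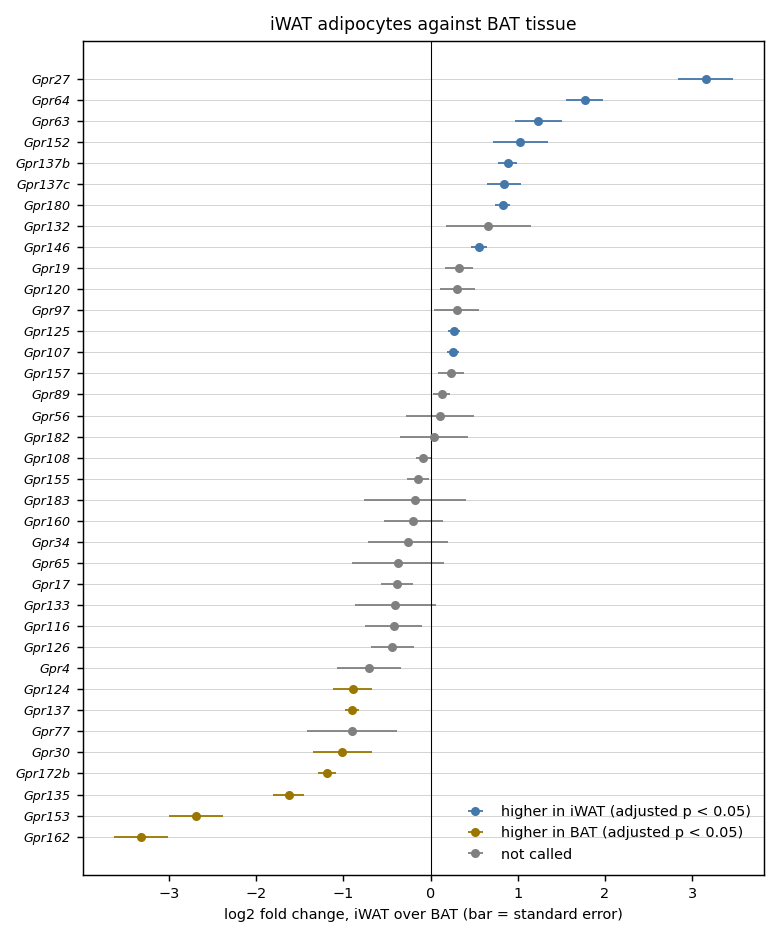
Log2 fold change of iWAT over BAT with its standard error for the 37 genes tested, from edgeR with 6 samples a depot. Blue genes passed as higher in iWAT and brown genes as higher in BAT. Gpr27 and Gpr64 stand out on the right (3.15 and 1.77) and Gpr162 and Gpr153 on the left (-3.32 and -2.69), while the receptors in grey did not pass.

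Several of the highest genes did not pass. Gpr120 had a log2 fold change of 0.31 ± 0.20 (adjusted p = 0.179), Gpr56 0.11 ± 0.39 (adjusted p = 0.821) and Gpr116 -0.42 ± 0.33 (adjusted p = 0.262). Samples 14 of iWAT and 11 of BAT were the highest for Gpr56 and Gpr116. Without iWAT sample 14, Gpr116, Gpr4 and Gpr126 passed as higher in BAT and Gpr19 as higher in iWAT, giving 20 called genes. The proton-sensing receptors also did not pass, with log2 fold changes of -0.70 for Gpr4, -0.37 for Gpr65 and 0.66 for Gpr132 and unadjusted p-values of 0.0756 to 0.492 in edgeR. The lipid receptors Gpr34 (-0.26) and Gpr183 (-0.17) were within their standard errors of 0.46 and 0.59.

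For eWAT the counts of a transcript row had to be compared with those of a merged gene row. A transcript cannot hold more reads than its merged gene, so read counts can place eWAT too low. A pair of fits was therefore set side by side, one on the read counts as they are and one with the row length as an offset, and the genes called in both are given first. Between eWAT and BAT, 42 of the 93 genes were tested, 25 passed in the fit of read counts (of 18383 symbols 70.3% passed it, 35.6% higher in eWAT and 34.7% higher in BAT) and 20 passed in both fits, 14 higher in eWAT and 6 higher in BAT. These are 47.6% of the members tested, beside 57.5% of all symbols (29.8% higher in eWAT and 27.7% higher in BAT). On the read counts the median log2 fold change was 0.39 for the members and 0.03 for all symbols. By role, 2 of 3 tested proton-sensing receptors and 3 of 4 lipid and metabolite receptors were higher in eWAT in both fits. So were 2 of 8 adhesion receptors, while the intracellular or non-receptor proteins split into 3 higher in eWAT and 3 higher in BAT of 9. The 3 lipid and metabolite receptors include Gpr35, which met the read minimum only through eWAT.

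Gpr27, which ran from 0.725 to 1.54 (median 1.13) in eWAT, above every BAT value, was 11.3-fold higher than in BAT by read counts (log2 3.50 ± 0.31, adjusted p = 9.34e-09) and 8.62-fold with the length offset. Its eWAT row and its merged row are the same, and no BAT sample reached the read minimum. Gpr64 was 5.13-fold and 4.46-fold higher, and the SREB receptor Gpr173 3.35-fold and 2.68-fold. Gpr173 had 10 to 32 reads a library in eWAT, 2 to 16 in iWAT and 3 to 7 in BAT. It met the read minimum only through eWAT, so it could be tested only because it was higher there. The orphan Gpr63 (log2 1.67 and 1.69) and the adhesion receptor Gpr126 (1.44 and 1.92) also passed. The highest eWAT RPKM of Gpr126 (1.67) was in sample 15, without which it still passed both fits. Gpr180, Gpr146 and Gpr155 were higher by at most 1.90-fold in either fit.

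The proton-sensing receptors Gpr65 and Gpr132, known from leukocytes, and the lipid and metabolite receptors Gpr34, Gpr183 and Gpr35 were all higher in eWAT than in BAT. Gpr65 (chr12:99506845-99514842) ran from 0.78 to 9.16 (median 1.41) in eWAT and from 0.0704 to 0.605 (median 0.214) in BAT. Gpr132 (chr12:114089084-114099154) ran from 0.948 to 8.89 (median 1.60) in eWAT and from 0.0704 to 0.328 (median 0.204) in BAT. No eWAT value of either gene fell within the BAT range, and the highest eWAT sample was 15 for both. By read counts the log2 fold change was 2.93 ± 0.66 for Gpr65 and 3.51 ± 0.62 for Gpr132, with adjusted p-values of 6.85e-04 and 6.47e-05.

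Gpr35 (3.36 ± 0.53), Gpr34 (2.25 ± 0.65), a lysophosphatidylserine receptor, and Gpr183 (2.83 ± 0.85), an oxysterol receptor that guides immune cells, also passed in both fits. Gpr35 had 34 to 230 reads a library in eWAT, 3 to 22 in iWAT and 4 to 12 in BAT. It met the read minimum only through eWAT, so it could be tested only because it was higher there. Sample 15 was the highest for each of these receptors. Without it the log2 fold change by read counts was 1.91 for Gpr65, 2.61 for Gpr132 and 2.82 for Gpr35, all past the threshold in both fits. Gpr34 fell to 1.05 and passed by read counts but not with the length offset (adjusted p = 0.171), and Gpr183 fell to 1.07 and passed in neither (adjusted p = 0.0932 and 0.281). Gpr137b, at 1.70 ± 0.38, was at 0.92 without it. In that setting 19 genes passed in both fits, and 18 to 22 did when eWAT sample 8 or BAT sample 11 or 12 was left out.

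The macrophage markers were set beside these receptors. The marker sum was 137 to 1981 in eWAT and 20.0 to 47.4 in BAT. Within eWAT the samples 15 and 13 had the highest and second highest sum. They were also the highest and second highest for Gpr65, Gpr132, Gpr34 and Gpr35. For Gpr183 the second highest was sample 7 (0.542), which had the lowest sum. In BAT, sample 13 had the highest sum and sample 11 (40.0) the second highest. They were the highest and second highest for Gpr132. For Gpr65 (0.605 and 0.459) and Gpr35 (0.0874 and 0.0675) sample 11 was the highest and sample 13 the second highest. Gpr34 was highest in sample 13 but lowest in sample 11 (0.172), and Gpr183 was highest in sample 12 (0.23). All 5 markers had reads in every depot. Their part in the result was not tested.

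**Figure D4:**
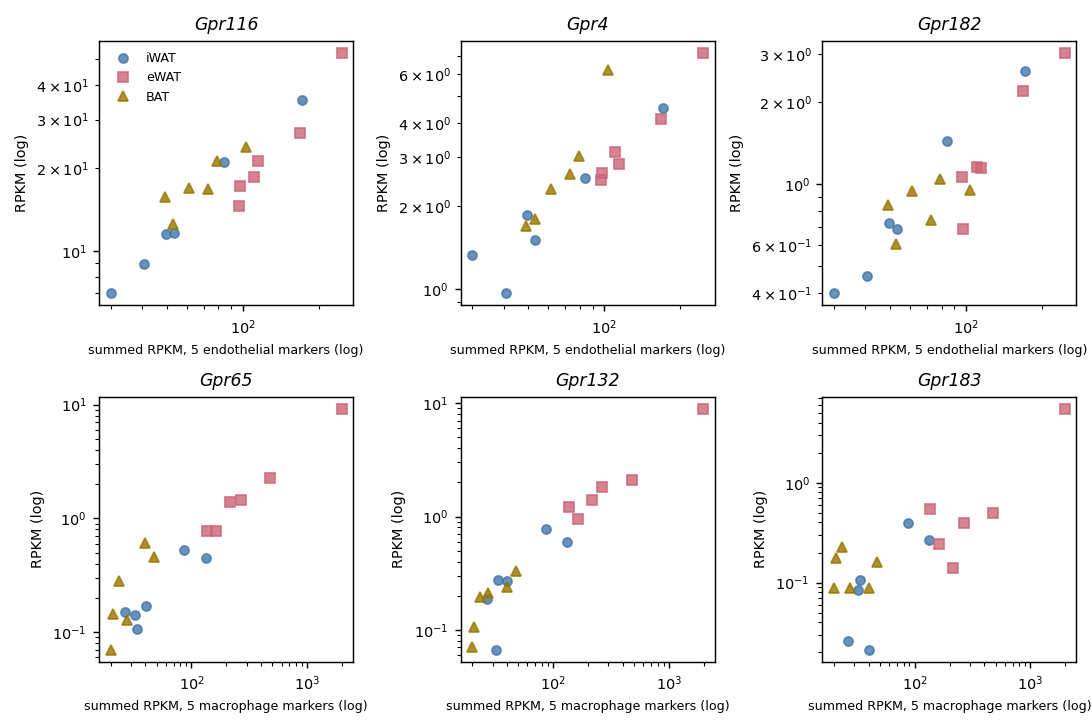
RPKM of a receptor against the summed RPKM of 5 marker genes in each of the 18 samples, on log axes. The upper row sets Gpr116, Gpr4 and Gpr182 against endothelial markers and the lower row Gpr65, Gpr132 and Gpr183 against macrophage markers. The eWAT sample with a macrophage sum of 1981 is the highest for all 3 receptors of the lower row (9.16, 8.89 and 5.47).

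The 6 genes higher in BAT in both fits were Gpr135, Gpr162, Gpr153, Gpr172b, Gpr137 and Gpr108. Gpr135 ran from 0.548 to 0.858 (median 0.615) in eWAT, below every BAT value, and was lower by 5.91-fold in read counts (log2 -2.56 ± 0.18, adjusted p = 4.61e-10) and by 7.83-fold with the offset. Gpr162 was at log2 -2.33 ± 0.34 and -2.54 ± 0.34, Gpr153 at -1.32 ± 0.31 and -1.67 ± 0.31, Gpr172b at -1.30 ± 0.10 and -1.64 ± 0.10, and Gpr137 at -1.53 ± 0.09 and -1.34 ± 0.10. Gpr108 was lower in eWAT at log2 -0.50 ± 0.09 after TMM normalization. On the deposited RPKM its mean was higher in eWAT, 9.07 against 7.75, but that scale also divides by the row length. The eWAT row of Gpr108 is 2164 bp long and the merged row 2845 bp. Over the merged length its eWAT mean was 6.90 ± 0.869, against 7.75 in BAT. That eWAT value leaves out reads outside the 1 transcript, so it can only come out low and does not settle the order. Without BAT sample 11 or 12, Gpr162 fell under the read minimum.

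Gpr120 passed by read counts at a log2 fold change of 0.53 ± 0.22 (adjusted p = 0.0419) but was at 0.14 ± 0.23 with the length offset (adjusted p = 0.589), although its row is the same in both kinds of file. The offset changes the lengths, and with them the normalization, of other rows. Gpr107 behaved the other way, at 0.08 ± 0.06 by read counts and 1.07 ± 0.07 with the offset, which follows the unequal lengths given above. Gpr116 (0.16 ± 0.35), Gpr56 (0.84 ± 0.37), Gpr4 (0.04 ± 0.36) and Gpr182 (0.49 ± 0.41) did not pass in the fit of read counts. Gpr56 was close to the threshold (adjusted p = 0.0536) and passed with DESeq2, with DESeq2 size factors in edgeR, without eWAT sample 15, and in both fits without BAT sample 11. Gpr160 did not pass by read counts (adjusted p = 0.455) but did with the length offset (log2 0.85 ± 0.34, adjusted p = 0.0316).

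The third comparison set the 2 white depots against each other, both as floating adipocytes. Of the 42 genes tested 16 passed by read counts, 4 higher in iWAT (of 18383 symbols 25.6% passed, 13.4% higher in iWAT and 12.3% higher in eWAT), and 14 in both fits, 4 higher in iWAT and 10 higher in eWAT. These are 33.3% of the members tested, beside 16.9% of all symbols, of which 7.59% were higher in iWAT and 9.27% higher in eWAT. The median log2 fold change of iWAT over eWAT by read counts was -0.52 for the members and near 0 for all symbols. Of the genes called by read counts 25% were higher in iWAT, and 4.17% of those called with limma on log2(RPKM + 0.1). Without eWAT sample 15, 12 genes passed in both fits, and without iWAT sample 14, 18 did.

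Higher in eWAT were the proton-sensing receptors Gpr65 and Gpr132, the lipid and metabolite receptors Gpr34, Gpr35 and Gpr183, the complement C5a receptor Gpr77 (C5ar2), the zinc receptor Gpr39, the adhesion receptor Gpr126 (Adgrg6), which acts in Schwann cell myelination, and Gpr153 and Gpr155. By role these include 2 of 3 tested proton-sensing receptors, 3 of 4 lipid and metabolite receptors and 1 of 8 adhesion receptors. Here too, Gpr35 could be tested only through its reads in eWAT. Gpr65 ran from 0.106 to 0.532 (median 0.159) in iWAT, below every eWAT value, and was 10.2-fold lower there by read counts (log2 -3.35 ± 0.68, adjusted p = 0.00158) and 7.62-fold lower with the offset. Gpr132 ran from 0.067 to 0.775 (median 0.273) in iWAT, also below every eWAT value (log2 -2.89 ± 0.60, adjusted p = 0.00178). Without eWAT sample 15 these fold changes were -2.32 and -1.99, both past the threshold. The macrophage marker sum in iWAT was highest in samples 7 and 11 (132 and 87.0), which were also the highest iWAT samples for Gpr65, Gpr132, Gpr183 and Gpr35. Gpr34 was highest in sample 7 (0.835) but lowest in sample 11 (0.15). The part of the macrophage markers in the result was not tested.

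Gpr39 (chr1:127573572-127770439) was low, with 9 to 28 reads a library in eWAT and 1 to 4 in iWAT, and was at log2 -2.72 ± 0.32 (adjusted p = 9.55e-06), with -2.53 when sample 15 was left out. Its exons share 39.9% of their bases with Lypd1 on the opposite strand. Gpr35 was at log2 -2.72 ± 0.50, Gpr77 at -2.69 ± 0.66 and Gpr126 at -1.92 ± 0.41 by read counts. Sample 15 was the highest eWAT sample for Gpr77 (1.98) and Gpr126 (1.67) as well. Without it the eWAT mean fell from 0.571 to 0.289 for Gpr77 and from 0.612 to 0.40 for Gpr126, and both genes still passed both fits. Gpr183 (-3.05 ± 0.86) and Gpr34 (-2.55 ± 0.66) did not pass both fits without sample 15, where they were at -1.28 and -1.35 by read counts. Gpr153 (-1.42 ± 0.33) and Gpr155 (-0.48 ± 0.12) passed with that sample left out.

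Higher in iWAT in both fits were Gpr135, Gpr137c, Gpr137 and Gpr108. Gpr137c was at log2 1.27 ± 0.19 by read counts and at 0.52 ± 0.19 with the offset (adjusted p = 0.031). Its mean RPKM was 0.12 in iWAT and 0.114 in eWAT with overlapping ranges, its eWAT row of 3227 bp is far shorter than the merged row of 7290 bp, and it did not pass with limma on the RPKM scale. Gpr135 had the order BAT, iWAT, eWAT with no overlap, and was 1.85-fold higher in iWAT than in eWAT (log2 0.89 ± 0.18, adjusted p = 0.0014). Gpr137 (0.58 ± 0.09) and Gpr108 (0.37 ± 0.09) were higher in iWAT after TMM normalization. On the RPKM scale, which also carries the unequal row lengths, both reversed, to -0.02 and -0.03 on log2(RPKM + 0.1). Over the merged length the eWAT means were 3.95 for Gpr137 and 6.90 for Gpr108, against 5.82 and 8.81 in iWAT. These eWAT values leave out reads outside the 1 transcript. They can only come out low and do not settle the order. Gpr64 (-0.64 ± 0.23, adjusted p = 0.0521), Gpr120 (-0.27 ± 0.22) and Gpr146 (0.13 ± 0.12) did not pass in either fit. Gpr160 passed only with the offset, as higher in eWAT (log2 -1.06 ± 0.34, adjusted p = 0.0139).

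**Figure D5:**
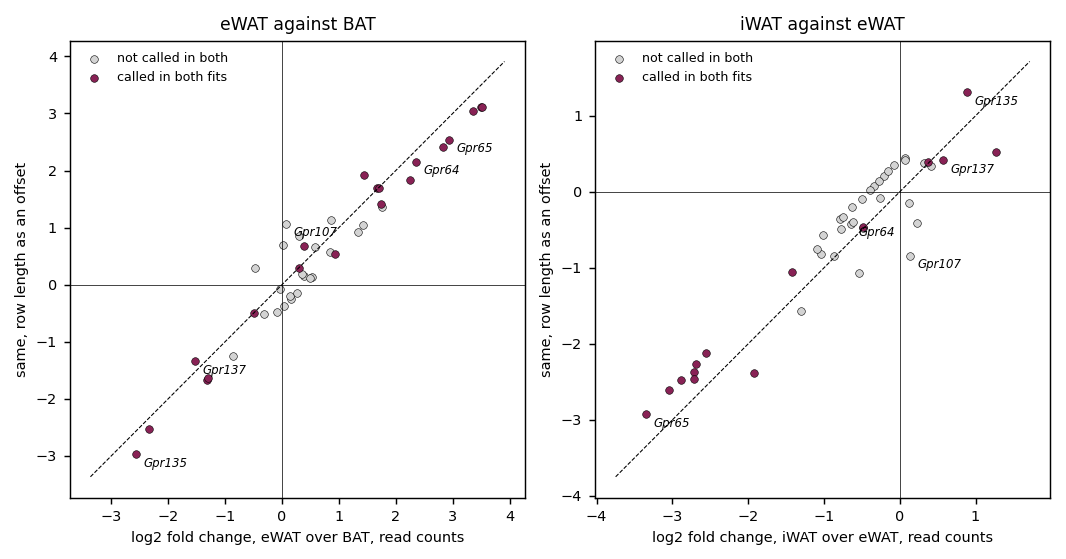
Log2 fold change of the 42 tested genes from the fit of read counts (x axis) and from the fit with the row length as an offset (y axis), for eWAT over BAT on the left and iWAT over eWAT on the right. Purple genes passed in both fits and grey genes did not, and the dashed line marks equal values. Gpr107, with values of 0.08 and 1.07 on the left and 0.13 and -0.84 on the right, lies off the line.

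TMM normalization sets the typical gene to no change. On log2(RPKM + 0.1) without it, the median over all tested symbols shifted by 0.23 for iWAT over BAT, by 0.68 for eWAT over BAT and by -0.35 for iWAT over eWAT. Fold changes here are therefore relative to the typical gene, and on the RPKM scale eWAT lies higher against the other depots than in the fits. For eWAT that scale also divides by the transcript row, so normalization and row length cannot be told apart in its shifts.

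Some receptors, among them several known from vessels, varied widely between libraries of the same depot. Gpr4, a proton-sensing receptor known from endothelium, ran from 0.965 to 4.52 (median 1.68) in iWAT, from 2.49 to 7.17 (median 2.99) in eWAT and from 1.69 to 6.20 (median 2.46) in BAT. Gpr182, an atypical chemokine receptor of endothelial cells, ran from 0.398 to 2.59 (median 0.702), from 0.687 to 3.03 (median 1.16) and from 0.605 to 1.05 (median 0.892). The orphan Gpr160 ran from 0.536 to 2.48 (median 0.895), from 1.92 to 5.81 (median 3.22) and from 0.617 to 1.81 (median 1.12), so that every eWAT value lay above BAT on the deposited RPKM. The samples with the highest endothelial sum, 8 of eWAT and 14 of iWAT, were the highest for Gpr116, Gpr56, Gpr4, Gpr182 and Gpr160, and BAT sample 11 was the highest for all of these except Gpr182. Those eWAT and iWAT samples also had the highest sum of smooth muscle and pericyte markers in their depots. The part of either set of markers in the spread was not tested. The remaining expressed genes, Gpr17 (mean RPKM 1.31, 1.68 and 1.43 in iWAT, eWAT and BAT), a receptor of oligodendrocyte precursors, Gpr157 (1.47, 1.55 and 1.04) and Gpr19 (1.06, 1.10 and 0.698), did not pass both fits in any comparison that involves eWAT, nor the test of iWAT against BAT.

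A list of 17 ligands, ligand-making enzymes and co-receptors of these receptors was read in the same fits. In iWAT against BAT 12 were tested, 9 passed as higher in iWAT and 3 did not pass, beside 68.6% of all symbols called and 34.6% higher in iWAT. In eWAT against BAT 11 of 13 passed by read counts, as higher in eWAT, beside 70.3% of all symbols called and 35.6% higher in eWAT. Between the white depots 3 passed as higher in iWAT and 1 as higher in eWAT, of 13, beside 25.6% of all symbols called. The list was chosen with earlier results known, and nothing is read from these shares. Chemerin (Rarres2), the ligand shared by Gpr1 and Cmklr1, had a mean RPKM of 261 ± 30.8 for iWAT, 189 ± 35.0 for eWAT and 21.9 ± 4.73 for BAT (log2 3.31 ± 0.14 for iWAT over BAT, adjusted p = 1.54e-10). Cmklr1, the other chemerin receptor, had a mean of 43.2 for iWAT, 37.5 for eWAT and 1.40 for BAT, whereas Gpr1 itself stayed at or below 0.893 in every library.

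Cxcl10, a chemokine that Gpr182 can take up, had a mean RPKM of 164 ± 112 for iWAT, 78.2 ± 53.9 for eWAT and 0.805 ± 0.526 for BAT (log2 7.44 ± 0.60 for iWAT over BAT, adjusted p = 8.38e-08). Cxcl12 and Cxcl13, the other chemokines of the list, passed in no comparison. The mean of Cxcl12 was 7.93 for iWAT, 16.3 for eWAT and 9.82 for BAT (log2 -0.58 ± 0.31 for iWAT over BAT, adjusted p = 0.113 in edgeR). That of Cxcl13 was 0.355, 1.04 and 0.274. Transglutaminase 2 (Tgm2) and Col3a1, both ligands of Gpr56, were higher in iWAT than in BAT by log2 0.57 ± 0.08 and 1.43 ± 0.15. Prosaposin (Psap), a proposed ligand of Gpr37, was at -0.10 ± 0.07 for iWAT over BAT and did not pass (adjusted p = 0.246). By read counts in edgeR it passed as higher in eWAT in the other comparisons. It was at 0.81 ± 0.30 for eWAT over BAT (adjusted p = 0.0238) and -0.96 ± 0.30 for iWAT over eWAT (adjusted p = 0.0273). Its RPKM in eWAT ran widely, from 347 to 1843.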

How the data were processed

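RNA-seq was analysed in 6 samples each of iWAT adipocytes, eWAT adipocytes and BAT tissue. According to the methods and labels, RNA of high integrity was made into libraries with NEBNext Ultra reagents and sequenced on an Illumina HiSeq instrument, and reads were mapped to mm9 and analysed with the Genomatix Genome Analyzer. The submitters' processing notes also name cutadapt (version 1.16) and HISAT2 (version 2.1.0). The counting rule, its use of strand and the annotation version are not given in the sources used here. Raw read counts were deposited for each row, and the RPKM values that the authors gave beside them equal the counts over the length of the row and over 1 total per sample. The labels name no sequencing batch.

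The merged gene row was used for iWAT and BAT and the transcript row with the most reads for eWAT, and 45151 symbols in both kinds of file were kept. The quasi-likelihood test of edgeR 4.0.16 (R 4.3.3, glmQLFit and glmQLFTest) was run on the read counts with TMM normalization, a minimum of 10 reads in 6 samples and Benjamini-Hochberg adjustment over all symbols. The fit of iWAT against BAT held those 12 samples and the eWAT fits held all 18. The row length entered a second eWAT fit as an offset. The standard error was derived from the F statistic. The code was tested on simulated data. Alternatives were DESeq2 1.42.0, log2 RPKM in limma 3.58.1, other filters, other rows and fits that left out samples. Exon overlaps were taken from GENCODE vM1 (91 genes matched). Figures were drawn in Python (version 3.11.15).

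Named genes are those expressed in a depot (a minimum of 1 on the mean RPKM), the 5 with the largest change in each direction past the threshold in each comparison, and the 3 on either side of a mean RPKM of 1. Other genes named were chosen after their values were seen. 2 genes that the symbol rule also takes are not reported here. The genes, role lists, partner list and marker lists were chosen with earlier results of these data known.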

Additional observations from a re-analysis of the deposited data

Results flagged for a closer look

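In 64 sets of 6 values (each expressed gene in each depot), 11 had a sample that stood apart (by the 95% critical value of Dixon's test for the gap to the nearest other sample over the whole range). Chance flags about 1 in 20 such sets, or 3.2 of 64, if values are normal and sets are independent. Here the sets share libraries. Gpr34 and Gpr183 in eWAT also reached the minimum only with the flagged sample 15. The 11 are therefore not measured against 3.2.

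In eWAT, 6 of them were in sample 15, which also had the highest macrophage marker sum. There Gpr137b had an RPKM of 11.1 (1.88 to 2.57 in the others), Gpr65 9.16 (0.78 to 2.25), Gpr132 8.89 (0.948 to 2.11), Gpr34 6.36 (0.468 to 1.16), Gpr183 5.47 (0.141 to 0.542) and Gpr157 2.58 (1.08 to 1.61). In eWAT sample 8, which had the highest endothelial marker sum of that depot, Gpr116 was at 52.5 (14.5 to 26.8) and Gpr4 at 7.17 (2.49 to 4.13). In eWAT sample 14, Gpr89 was at 4.44 (3.52 to 3.85). In BAT sample 11, which had the highest endothelial marker sum of BAT, Gpr56 was at 16.6 (4.24 to 7.43) and Gpr4 at 6.20 (1.69 to 3.03). No sample stood apart in this way in iWAT.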

How the results depend on the processing

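For 50 called differences of named genes, 758 values were computed under alternatives, of which 686 kept direction and threshold, 66 kept direction only and 6 reversed. The reversed ones were all on the RPKM scale without TMM, which also carries the unequal row lengths of eWAT. With a pseudocount of 0.1 and of 1, Gpr108 was at 0.22 and 0.20 for eWAT over BAT and at -0.0339 and -0.0314 for iWAT over eWAT, and Gpr137 at -0.0185 and -0.0168 for iWAT over eWAT. The number of expressed genes was 35, 46 and 36 in iWAT, eWAT and BAT with a minimum mean RPKM of 0.1, 12 in iWAT with a minimum of 2, and 5 in each depot when only the rows shared by both kinds of file were kept. For iWAT against BAT, 28 genes passed with no read filter, 11 with only genes at a mean RPKM of at least 1 tested, 10 when tested against a fold change of 1.5 and 3 on shared rows. Under that same limit on the mean RPKM, 15 passed for eWAT against BAT and 9 for iWAT against eWAT, 10 passed for iWAT against eWAT when tested against a fold change of 1.5, and on shared rows 5 and 1 did. Of the calls for iWAT against BAT, 58.8% were higher in iWAT, with 46.7% when all 18 samples were fitted, 47.1% with the replicate block and 68.2% with limma on the RPKM scale. Leaving out single doubted libraries gave 16 to 20 calls for iWAT against BAT, 22 to 25 for eWAT against BAT and 15 to 22 for iWAT against eWAT by read counts, and 19 expressed genes in iWAT, 23 to 25 in eWAT and 17 to 18 in BAT. Leaving out iWAT sample 14, eWAT sample 8 or BAT sample 11, the offset fits without a library and the eWAT reads over merged length were chosen after seeing the data.

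Samples with the same title number did not deviate together (correlations of -0.04 to 0.13, -0.16 to 0.06 and -0.33 to 0.14 in the 3 comparisons, and 1 sample in all closest to its own number), and no label says what the number stands for, so it was not used as a pairing. With the number as a replicate block, 17, 19 and 13 genes passed for iWAT against BAT, eWAT against BAT and iWAT against eWAT, beside 17, 25 and 16 without it. Reads are not independent molecules, and genes with few reads a library, such as Gpr27 in BAT and Gpr39 and Gpr162 in iWAT, limit what their fold changes can show.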

Other observations

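Among members outside the rule for named genes, and chosen after their values were seen, Gpr50, an orphan related to the melatonin receptors, had no read in the 6 BAT samples. It had a mean RPKM of 0.389 ± 0.288 in eWAT (0.0192 to 0.815) and of 0.0114 ± 0.0106 in iWAT. Gpr84, a receptor for medium-chain fatty acids that is known from myeloid cells, had a mean of 0.444 ± 0.574 in eWAT, of which sample 15 was the highest at 1.59, and of 0.00346 in BAT, where 1 library had reads. Gpr176, an orphan of the circadian clock, was at 1.16 in eWAT sample 15 and at 0.0302 to 0.127 in the other eWAT samples.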
